A study of Arabidopsis thaliana with 8 samples.

Results

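Transcript levels of 8 genes that respond to abscisic acid or to loss of water were followed in rosette leaves of Arabidopsis thaliana. The set was drawn up with earlier results of these data known, its genes were taken by their locus identifiers, and all 8 were found among the 34354 rows of the deposited table. RNA sequencing had been done on a double mutant carrying the pif4-2 and pif5-3 alleles, here called pif4 pif5, and on the Col-0 wild type in which it was made. Plants grown in soil at 22 °C to an age of 3 weeks were either given 5 h at 42 °C followed by 3 days of recovery, or mock-treated, and the leaves at rosette positions 3 and 4 were taken. The 4 groups were pif4 pif5 heat, pif4 pif5 mock, wild-type heat and wild-type mock, with 2 libraries each, which the series' design text describes as biological replicates. It is also stated there that the collected leaves had started to yellow at the margin, without a group being named, and whether the mock leaves were of equal age at harvest was not checked. Levels are FPKM, which scale fragments by transcript length and library size, so they can be compared between genes.

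Abscisic acid is the hormone that plants accumulate when water runs short, and in leaves it closes stomata and also promotes senescence. It is bound by receptors of the PYR/PYL family, which then hold back the clade A PP2C phosphatases; the SnRK2 kinases, no longer restrained, phosphorylate basic leucine zipper factors that bind the abscisic acid response element (ABRE). ABF3 and ABF4 encode such factors. The other members lie downstream: RAB18 (a dehydrin), LEA14 and LEA4-5 (late embryogenesis abundant proteins), RD29B (a hydrophilic protective protein), RD20 (a caleosin, a calcium-binding protein of lipid droplets) and RD22 (a BURP domain protein). PIF4 and PIF5 are basic helix-loop-helix factors of light and temperature signalling that bind G-box and related PBE-box sequences.

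The labels were checked first. PIF4 averaged 24.7 FPKM in pif4 pif5 heat, 33.6 in pif4 pif5 mock, 99.0 in wild-type heat and 131 in wild-type mock. PIF5 averaged 4.36, 5.15, 54.6 and 64.8 FPKM in the same groups, so both mutated genes were lower in the mutant. The steps of the FPKM values gave a depth between 16852240 and 29535916 reads for each library, in which 16016 to 16348 genes had 1 FPKM or more. Leaf markers (RBCS1A, LHCB1.1, RCA and GLDP1) were all present, with up to 8829.67 FPKM for a single gene. In these bulk leaves, fewer cells of a type and less RNA per cell cannot be told apart.

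The promoters show the element by which most of these genes are known to answer to the hormone. In RefSeq TAIR10.1, the ABRE core (ACGTG, on either strand) was counted in the 300 bases before each annotated gene start. The 200 bases nearest the start are given for the 3 genes with the largest log2 change after heat in the wild type, and for RD22, which moved the other way. Capitals mark each ABRE core or pair of overlapping cores. They lie at chr5:21236821-21237020 on the plus strand (RD29B), and on the minus strand at chr2:14146556-14146755 (RD20), chr5:2090431-2090630 (LEA4-5) and chr5:8916857-8917056 (RD22), each written 5′ to 3′ in the direction of its gene.
RD29B: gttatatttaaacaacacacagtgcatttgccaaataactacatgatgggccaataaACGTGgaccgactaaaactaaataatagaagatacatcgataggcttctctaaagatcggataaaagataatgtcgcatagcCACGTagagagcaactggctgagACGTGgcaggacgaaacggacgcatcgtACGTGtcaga
RD20: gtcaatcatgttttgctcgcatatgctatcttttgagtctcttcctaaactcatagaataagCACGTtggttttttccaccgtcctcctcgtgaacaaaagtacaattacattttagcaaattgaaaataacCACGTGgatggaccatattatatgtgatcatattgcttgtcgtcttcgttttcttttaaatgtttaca
LEA4-5: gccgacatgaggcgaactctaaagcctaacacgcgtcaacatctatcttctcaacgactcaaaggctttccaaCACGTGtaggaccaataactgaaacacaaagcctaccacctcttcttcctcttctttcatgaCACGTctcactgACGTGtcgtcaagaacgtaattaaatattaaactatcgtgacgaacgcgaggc
RD22: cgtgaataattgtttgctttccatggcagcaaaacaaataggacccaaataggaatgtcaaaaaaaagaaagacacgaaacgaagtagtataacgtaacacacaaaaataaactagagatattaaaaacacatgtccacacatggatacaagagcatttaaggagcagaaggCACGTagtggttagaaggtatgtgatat

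All 8 genes had at least 1 ABRE core in the 300 bases, against 25.6% of the 27443 gene windows of this length. RD29B and LEA4-5 had 4 each, RAB18 and RD20 had 3, LEA14 had 2, and RD22, ABF3 and ABF4 had 1 each. Of all windows, 3.44% held 3 or more. The longer form ACGTGNC, which contains the core, was present in RD29B (3 matches), LEA4-5 (2), RAB18, RD22 and LEA14 (1 each), and in 9.46% of all windows. A G-box (CACGTG), which counts as 2 overlapping cores, was found in RD20 and LEA4-5 and in 7.09% of windows. The PBE-box (CACATG) was found once in RAB18 and 2 times in RD22, where it stands in lower case between positions -72 and -57, and in 13.1% of windows. The dehydration-responsive element was found as ACCGAC in RD29B (5.45% of windows) and as GCCGAC in LEA4-5 (3.01% of windows). The whole RAB18 window lies in an exon of the neighbouring gene PLP3b, and its sequence is therefore not shown. All motifs were sought on both strands, and these are matches of letters and not measured binding sites.

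**Figure D1:**
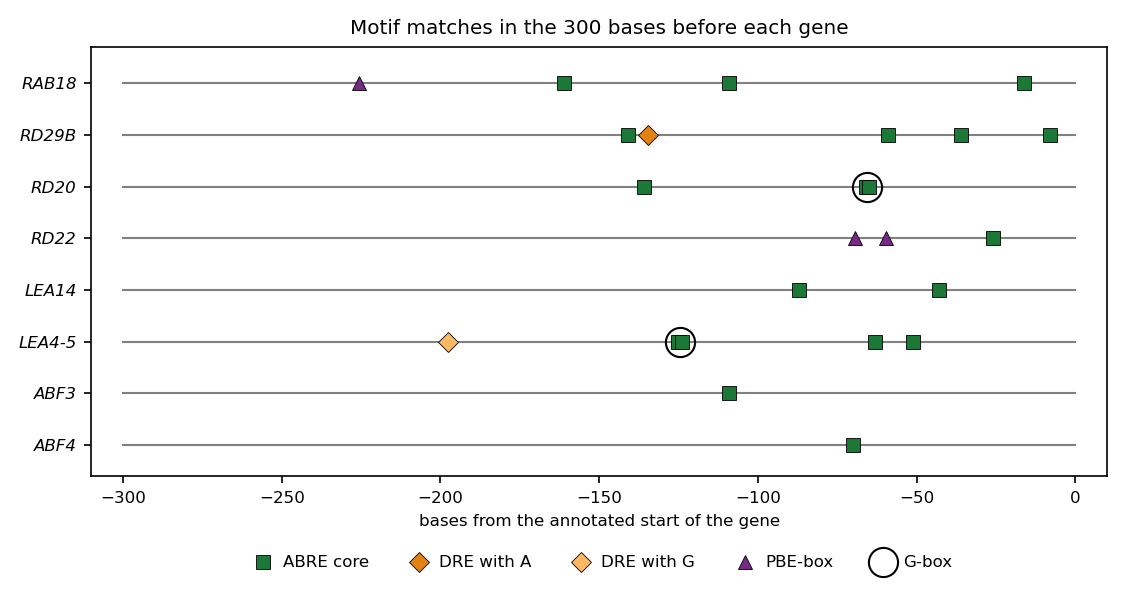
Motif matches in the 300 bases before the annotated start of each of the 8 genes; the horizontal axis is the distance in bases from the start, squares are ABRE cores, triangles PBE-boxes, diamonds dehydration-responsive elements and open circles G-boxes. RD29B and LEA4-5 carry 4 ABRE cores each, and ABF3 and ABF4 carry 1 each.

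After heat, 6 of the 8 genes rose in the wild type, and none rose in pif4 pif5 with the values as deposited (RD20 did with 2 other scalings). The 6 were RAB18, RD29B, RD20, LEA4-5, ABF3 and ABF4, while RD22 fell in both genotypes, and LEA14 passed the test in neither. Calls are made with limma on log2(FPKM + 1) at an adjusted p below 0.05 (Benjamini-Hochberg, 16831 genes tested). Changes are given as log2 change ± SE on that scale, where genes of low FPKM appear to change less than they do. In pif4 pif5, heat against mock called 0 members higher and 1 lower, where 6.28% of all genes tested were called higher and 13.9% lower. At an unadjusted p below 0.05 the same test gave 1 member higher, RD20, and limma-voom on the recovered reads gave none. In the wild type, 6 were called higher and 1 lower, where 21.5% of genes were called higher and 16.9% lower. The median change of the 8 members was -0.04 in pif4 pif5 and 0.70 in the wild type, beside -0.06 and 0.02 over all genes; the second value includes RD29B and LEA4-5, which the filter on low values selected, and is 0.31 without them.

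The change after heat differed between the genotypes for 7 of the 8 genes, where it differed for 31.9% of all genes tested. The interaction, the change in pif4 pif5 minus that in the wild type, was called lower for 6 members and higher for RD22, where 21.6% of genes were called lower and 10.3% higher. Of the 8 members, RD29B and LEA4-5 passed the filter on low values (at least 1 FPKM in at least 2 libraries) only through the wild-type heat libraries, and so had to differ there. Without these, the counts for heat in the wild type are 4 higher and 1 lower of 6, and those for the interaction 4 lower and 1 higher. When either wild-type heat library was left out, RD29B and LEA4-5 were below the filter and not tested. The rise of ABF3 in the wild type was then also lost. Without wild-type heat replicate 1, the rise and the interaction of ABF4 were lost too. The comparisons share libraries: that of the genotypes after heat uses the same wild-type heat libraries as that of heat in the wild type, and the interaction uses all 8 libraries.

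**Figure D2:**
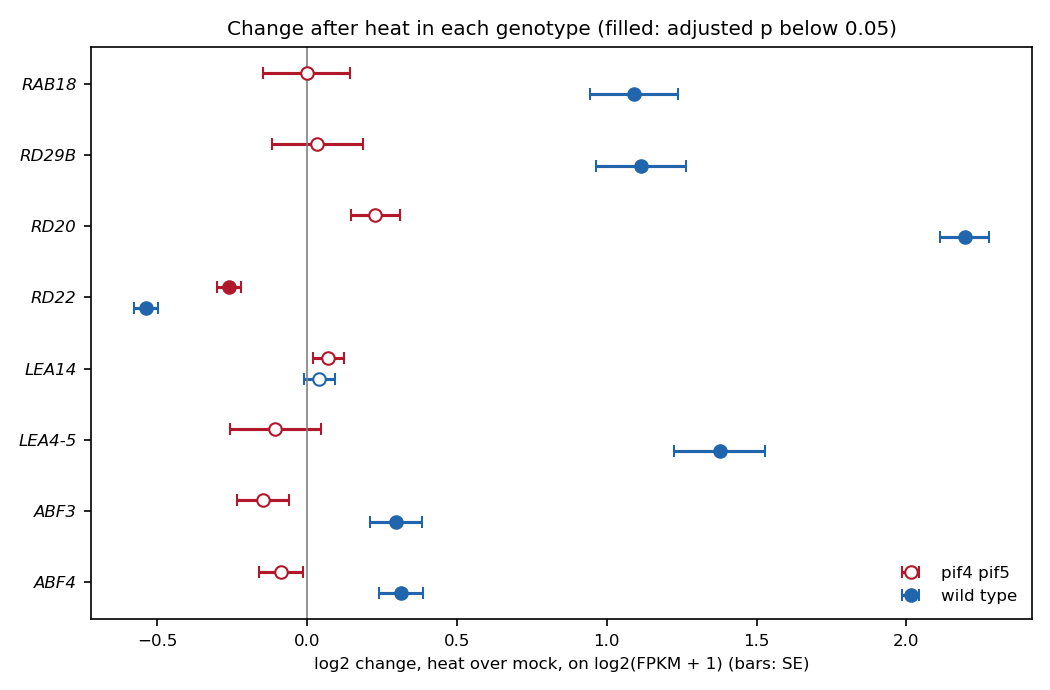
Log2 change, heat over mock, on the log2(FPKM + 1) scale for each gene in pif4 pif5 (red) and the wild type (blue); bars are 1 SE on either side from limma, and filled points passed an adjusted p of 0.05. The wild-type points of RAB18, RD29B, RD20 and LEA4-5 lie above 1, and the pif4 pif5 points of these genes lie between -0.11 and 0.23.

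The factor genes moved little. ABF3 (AT4G34000, chr4:16295334-16298285, plus strand) had 13.7 and 12.5 FPKM in pif4 pif5 heat, 13.3 and 15.9 in pif4 pif5 mock, 17.1 and 17.4 in wild-type heat, and 13.6 and 14.1 in wild-type mock. ABF4 (AT3G19290, chr3:6687042-6690123, plus strand) had 14.1 and 13.7 FPKM in pif4 pif5 heat, 14.99 and 14.7 in pif4 pif5 mock, 18.9 and 16.8 in wild-type heat, and 14.2 and 14.1 in wild-type mock. For both genes the 2 wild-type heat libraries were above the other 6, which ran from 12.5 to 15.9 FPKM for ABF3 and from 13.7 to 14.99 FPKM for ABF4. ABF3 rose in wild-type heat by 0.30 ± 0.09 (limma, adjusted p = 0.016) and ABF4 by 0.31 ± 0.07 (adjusted p = 0.0047). In pif4 pif5 the changes were -0.15 ± 0.09 and -0.09 ± 0.07, neither past the threshold, and ABF3 libraries of heat and mock overlapped. The interaction was -0.44 ± 0.12 for ABF3 (limma, adjusted p = 0.016) and -0.40 ± 0.10 for ABF4 (adjusted p = 0.012).

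These small changes no longer passed in some of the fits that left out a single library or used another scaling. For ABF3, the wild-type rise no longer passed without wild-type heat replicate 1, wild-type heat replicate 2 or wild-type mock replicate 1 (limma, adjusted p = 0.058, 0.078 and 0.078), and the interaction was lost without replicate 2 of pif4 pif5 heat (0.060) or of pif4 pif5 mock (0.069). For ABF4, leaving out wild-type heat replicate 1 ended both calls, with a wild-type change of 0.23 (limma, adjusted p = 0.062) and an interaction of -0.32 (adjusted p = 0.056). Median-of-ratios scaling ended the interaction of ABF3 (-0.35, adjusted p = 0.051), and quantile scaling that of both genes (-0.30 and -0.28, adjusted p = 0.086 and 0.061). ABF4 lies within a long noncoding RNA locus on the opposite strand, AT3G03815, which reached no more than 0.0808 FPKM. The ends of ABF3 and DJ1C overlap by 24 bases on opposite strands, and the use of strand in counting is not given in the sources used here.

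RAB18 (AT5G66400, chr5:26518277-26519447, minus strand), a dehydrin gene widely used as a marker of abscisic acid response, rose in wild-type heat and stayed near its mock level in pif4 pif5 heat. It had 7.51 and 8.76 FPKM in pif4 pif5 heat, 7.33 and 8.99 in pif4 pif5 mock, 19.8 and 28.8 in wild-type heat, and 11.0 and 10.3 in wild-type mock. Both wild-type heat libraries were far above the other 6, and the pif4 pif5 heat and mock libraries overlapped. The change after heat was -0.00085 ± 0.15 in pif4 pif5 (limma, adjusted p = 1.0) and 1.09 ± 0.15 in the wild type (adjusted p = 8.3e-05). The interaction was -1.09 ± 0.21 (limma, adjusted p = 0.0019). After heat, pif4 pif5 was 2.98-fold lower than the wild type. In mock, RAB18 was 0.36 ± 0.15 lower in pif4 pif5 and did not pass (limma, adjusted p = 0.10); this value passed with only the mock libraries in the fit (0.043), with the replicate number as a block (0.046) and without wild-type heat replicate 1 or 2 (0.036 and 0.037).

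RD29B (AT5G52300, LTI65 in the annotation, chr5:21237021-21239531, plus strand) was also highest in wild-type heat, at much lower levels. It had 0.255 and 0.579 FPKM in pif4 pif5 heat, 0.409 and 0.340 in pif4 pif5 mock, 1.70 and 2.01 in wild-type heat, and 0.316 in both wild-type mock libraries. These values stood for 12 and 21 reads in pif4 pif5 heat, 26 and 16 in pif4 pif5 mock, 78 and 76 in wild-type heat, and 17 in each wild-type mock library. All libraries but those of wild-type heat were below 1 FPKM, and the pif4 pif5 heat and mock libraries overlapped. The change after heat was 0.04 ± 0.15 in pif4 pif5 (limma, adjusted p = 0.89) and 1.11 ± 0.15 in the wild type (adjusted p = 9.3e-05), with an interaction of -1.08 ± 0.21 (adjusted p = 0.0026). On the same scale with a pseudocount of 0.1 FPKM the wild-type change was 2.23 and the interaction -2.17.

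RD29A (LTI78 in the annotation), the other gene of this tandem pair, begins 1185 bases after RD29B ends. It averaged 32.1 ± 1.05 FPKM in pif4 pif5 heat, 41.2 ± 3.74 in pif4 pif5 mock, 92.2 ± 1.82 in wild-type heat and 114 ± 12.9 in wild-type mock (SD, n = 2 each). RD29A fell after heat, by 0.35 ± 0.08 in pif4 pif5 and by 0.30 ± 0.08 in the wild type, with an interaction of -0.05 ± 0.11 (limma, adjusted p = 0.77). The wild-type fall no longer passed without wild-type heat replicate 1 (-0.28) or wild-type mock replicate 2 (-0.19). That in pif4 pif5 was lost without pif4 pif5 heat replicate 1 (-0.32), pif4 pif5 mock replicate 2 (-0.26) or the intensity trend. The difference of RD29A between genotypes was already present in mock (-1.45 ± 0.08), where RD29B differed by 0.06 ± 0.15 and did not pass (limma, adjusted p = 0.81).

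LEA4-5 (AT5G06760, chr5:2089445-2090430, minus strand), a group 4 late embryogenesis abundant gene, was the least abundant member outside wild-type heat. It had 0.304 and 0.0657 FPKM in pif4 pif5 heat, 0.337 and 0.202 in pif4 pif5 mock, 2.07 and 2.39 in wild-type heat, and 0.265 and 0.222 in wild-type mock. The reads behind them numbered 6 and 1 in pif4 pif5 heat, 9 and 4 in pif4 pif5 mock, 40 and 38 in wild-type heat, and 6 and 5 in wild-type mock. Outside wild-type heat the groups overlapped and the counts were too few to order them. The change after heat was -0.11 ± 0.15 in pif4 pif5 (limma, adjusted p = 0.66) and 1.38 ± 0.15 in the wild type (adjusted p = 1.6e-05), and the interaction was -1.48 ± 0.21 (adjusted p = 0.0003). At a pseudocount of 0.1 FPKM, the change in the wild type was 2.76 and the interaction -3.25.

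When either wild-type heat library was left out, RD29B and LEA4-5 no longer met the filter and had no value. With the genes of the full table kept, an alternative added after the data were seen, the wild-type change of RD29B was 1.19 without wild-type heat replicate 1 and 1.04 without replicate 2, and that of LEA4-5 was 1.45 and 1.31. The genes of the full table had been chosen with both wild-type heat libraries, including the one left out. A rise of RD29B and LEA4-5 was thus built in, and these values are no check of it.

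RD20 (AT2G33380, chr2:14144831-14146555, minus strand), the caleosin gene, differed most between the genotypes. It had 5.79 and 5.74 FPKM in pif4 pif5 heat, 4.61 and 4.95 in pif4 pif5 mock, 86.1 and 99.9 in wild-type heat, and 20.3 and 18.7 in wild-type mock. No groups overlapped, and every pif4 pif5 library lay below every wild-type library. The mutant was already lower in mock, by 1.83 ± 0.08 (limma, adjusted p = 3.4e-08), a 4.08-fold difference in mean FPKM. After heat it was lower by 3.79 ± 0.08 (limma, adjusted p = 2.4e-11), which is 16.1-fold. The wild type rose 4.77-fold after heat (2.19 ± 0.08, limma, adjusted p = 1.2e-09), and the interaction was -1.97 ± 0.12 (adjusted p = 2.3e-07). In pif4 pif5 the change of 0.23 ± 0.08 did not pass (limma, adjusted p = 0.072), but both heat libraries were above both mock libraries, and it passed under median-of-ratios scaling (0.29, adjusted p = 0.034) and under quantile scaling of the values (0.31, adjusted p = 0.029).

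**Figure D3:**
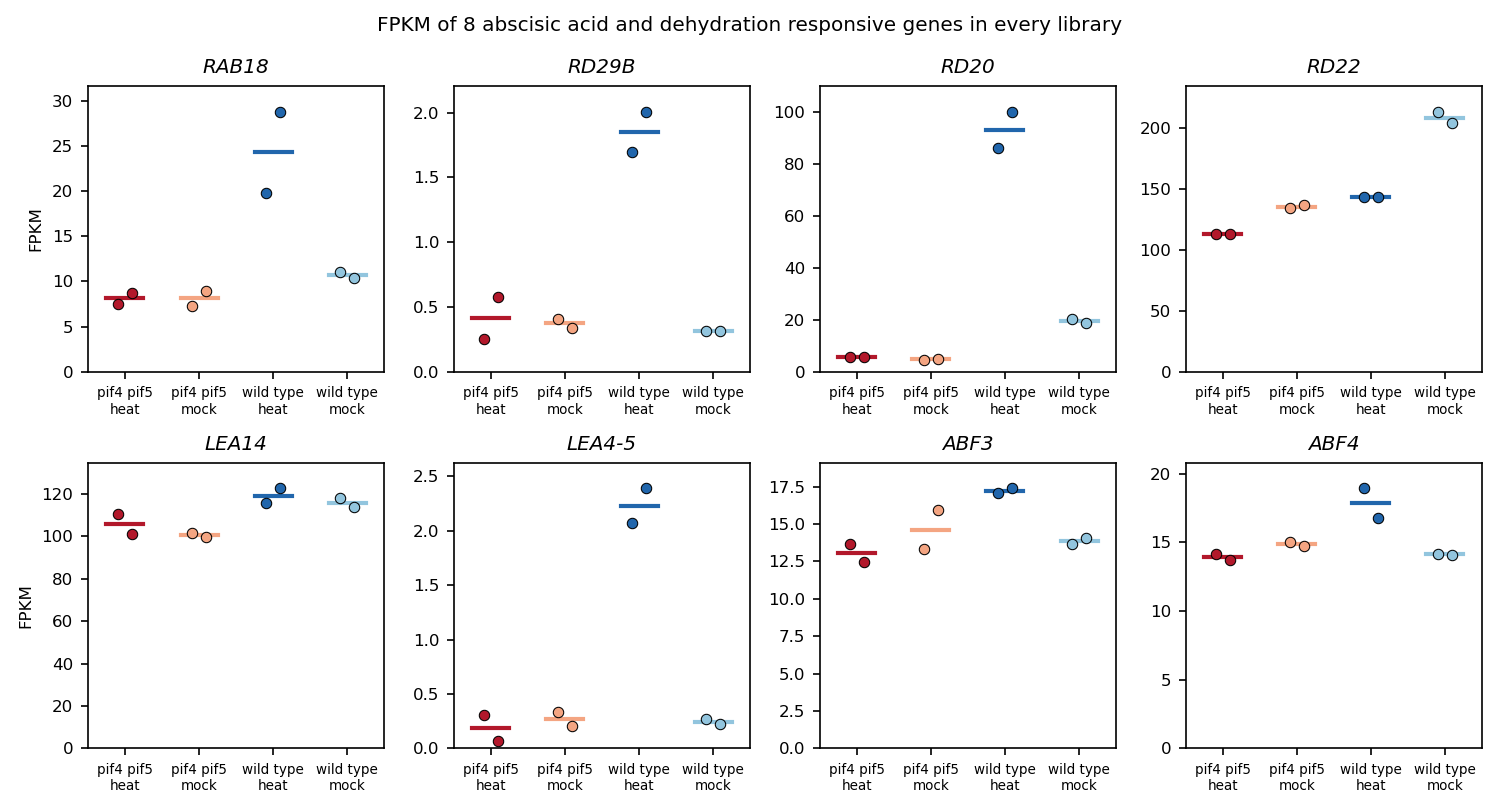
FPKM of each gene in every library (points) with the group mean (line), each panel with its own axis from 0; groups run from pif4 pif5 heat to wild-type mock. The wild-type heat libraries stand above the others for RAB18, RD29B, RD20 and LEA4-5, and the wild-type mock libraries are highest for RD22.

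RD22 (AT5G25610, chr5:8914122-8916856, minus strand) was highest in wild-type mock and lowest in pif4 pif5 heat. It had 113 FPKM in both pif4 pif5 heat libraries, 134 and 136 in pif4 pif5 mock, 144 and 143 in wild-type heat, and 213 and 204 in wild-type mock. The 4 groups did not overlap, and wild-type mock stood well above the rest. RD22 fell after heat by 0.26 ± 0.04 in pif4 pif5 (limma, adjusted p = 0.0014) and by 0.54 ± 0.04 in the wild type (adjusted p = 5.7e-07), and the interaction was 0.28 ± 0.06 (adjusted p = 0.0032). The mutant was lower both in mock (-0.62 ± 0.04) and after heat (-0.34 ± 0.04).

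LEA14 (AT1G01470, chr1:171525-172948, minus strand), which encodes an atypical, more hydrophobic LEA protein, was abundant and nearly level. It had 111 and 101 FPKM in pif4 pif5 heat, 102 and 99.5 in pif4 pif5 mock, 116 and 123 in wild-type heat, and 118 and 114 in wild-type mock. Heat and mock libraries overlapped in both genotypes, while each pif4 pif5 group lay below its wild-type group. The change after heat was 0.07 ± 0.05 in pif4 pif5 (limma, adjusted p = 0.35) and 0.04 ± 0.05 in the wild type (adjusted p = 0.56), and the interaction was 0.03 ± 0.07 (adjusted p = 0.79). The mutant was lower by 0.20 ± 0.05 in mock (limma, adjusted p = 0.017) and by 0.17 ± 0.05 after heat (adjusted p = 0.026). The mock call was lost without pif4 pif5 mock replicate 2 (adjusted p = 0.094, limma) or wild-type mock replicate 1 (0.10), and the call after heat was lost when replicate 2 of pif4 pif5 heat (-0.11, adjusted p = 0.23) or of wild-type heat (-0.13, adjusted p = 0.19) was left out. Both were also lost without the filter or the intensity trend, and the second with median-of-ratios scaling (-0.13, adjusted p = 0.075).

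In mock, pif4 pif5 against the wild type called 0 members higher and 3 lower (RD20, RD22 and LEA14), where 13.0% of genes were called higher and 7.69% lower. After heat it called 0 higher and all 8 lower, where 11.0% of genes were called higher and 17.6% lower; without either wild-type heat library, 5 were called lower, RD29B and LEA4-5 having dropped below the filter. Without RD29B and LEA4-5, which had to be high in wild-type heat to be tested, 6 of 6 were lower after heat. The median change between the genotypes over the 8 members was -0.09 in mock and -0.70 after heat, and over those 6 it was -0.28 and -0.36, beside 0.06 and -0.03 over all genes. ABF3 and ABF4 differed by 0.07 ± 0.09 and 0.07 ± 0.07 in mock without passing, and were lower in pif4 pif5 after heat by 0.37 ± 0.09 and 0.33 ± 0.07 (limma, adjusted p = 0.0062 and 0.0048). The call of ABF3 was lost without pif4 pif5 heat replicate 2 (-0.31, adjusted p = 0.060, limma) and that of ABF4 without wild-type heat replicate 1 (-0.25, adjusted p = 0.065).

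Across the 8 libraries the members did not form one pattern. The Pearson correlation of log2(FPKM + 1) was 0.95 between RAB18 and RD20, 0.95 between RD29B and LEA4-5, and 0.92 between LEA4-5 and ABF4, while RD22 had values between -0.13 and 0.51 with the other 7. The libraries of a group are shared by all pairs, so these values describe the group pattern. Among 11918 other genes averaging at least 5 FPKM, the most alike were ESL1 (0.981) and PYD1 (0.980) for RAB18, AT5G16980 (0.992) and TSBtype2 (0.989) for RD29B, and AT2G43120 (0.990) and CAD5 (0.990) for RD20. For LEA4-5 they were CYTC-2 (0.996) and AT2G29500 (0.994), for RD22 AT4G33490 (0.989) and OBP4 (0.988), and for LEA14 AT5G56380 (0.958) and AT5G51260 (0.951). For ABF3 they were AT2G31790 (0.976) and AT3G26100 (0.973), and for ABF4 NAC13 (0.987) and SULTR2;1 (0.984). As an example, CAD5, a cinnamyl alcohol dehydrogenase gene of lignin synthesis, had 27.8 and 27.7 FPKM in pif4 pif5 heat, 25.1 and 24.1 in pif4 pif5 mock, 84.0 and 82.3 in wild-type heat, and 38.5 and 37.4 in wild-type mock.

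Further up the pathway, most of the tested receptor genes were higher in the mutant. Of 14 PYR/PYL receptor genes 8 were tested. In mock 5 were higher in pif4 pif5 than in the wild type, and after heat 5, with medians over the 8 tested of 0.27 and 0.38. These were not the same 5 genes, as PYL1 passed after heat and not in mock. No receptor gene was called lower in either comparison. Over all genes 13.0% were called higher in mock and 11.0% after heat. After heat, 4 rose in pif4 pif5, where 6.28% of all genes were called higher, and 3 in the wild type, where 21.5% were, and the rest did not pass. PYL4 averaged 44.1 ± 2.06 FPKM in pif4 pif5 heat, 28.0 ± 1.34 in pif4 pif5 mock, 30.3 ± 1.33 in wild-type heat and 14.3 ± 1.14 in wild-type mock (SD, n = 2 each). It rose in both genotypes, by 0.63 ± 0.07 in pif4 pif5 and 1.03 ± 0.07 in the wild type (limma, adjusted p = 0.00017 and 2.3e-07). PYL5 was higher in pif4 pif5 by 0.87 ± 0.08 in mock and 0.75 ± 0.08 after heat, and PYL8 (RCAR3 in the annotation) by 0.34 ± 0.05 and 0.35 ± 0.05. A call in mock was lost with either scaling, without the filter and without the intensity trend. More were lost without pif4 pif5 mock replicate 2. The rises of PYL1 and PYL5 in pif4 pif5 were lost without the filter or the intensity trend. They were also lost without pif4 pif5 heat replicate 1 or either pif4 pif5 mock library.

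The clade A PP2C phosphatases, which restrain the pathway and are themselves known abscisic acid targets, were mostly lower in pif4 pif5 after heat. Of 9 genes 7 were tested. After heat 6 were lower in pif4 pif5 than in the wild type, with a median of -0.82 over the 7, where 17.6% of all genes were called lower. In the wild type 4 rose after heat and 1 fell (21.5% and 16.9% of all genes), and the interaction was lower for 5 (3 without wild-type heat replicate 2), against 21.6% of all genes. HAI1 passed the filter only through the wild-type heat libraries and so had to be high there. Without it, 5 of 6 were lower after heat with a median of -0.68, 3 rose in the wild type and the interaction was lower for 4. HAI2 averaged 0.877 ± 0.0509 FPKM in pif4 pif5 heat, 0.917 ± 0.00945 in pif4 pif5 mock, 4.39 ± 0.785 in wild-type heat and 1.51 ± 0.180 in wild-type mock (SD, n = 2 each). HAI1 averaged 0.131 FPKM in pif4 pif5 heat, 0.0566 in pif4 pif5 mock, 3.23 in wild-type heat and 0.484 in wild-type mock, and HAB1 4.11, 5.44, 9.04 and 5.44 in the same groups. Wild-type heat was thus highest for all 3, and HAB1 rose there by 0.64 ± 0.09 with an interaction of -0.97 ± 0.13 (limma, adjusted p = 0.00019). In pif4 pif5, 3 phosphatase genes fell after heat (ABI2, HAB1 and HAB2), where 13.9% of all genes were called lower. The falls of HAB1 and HAB2 no longer passed with either scaling, and those of ABI2 and HAB1 did not pass without the filter. HAB1 and HAB2 also lost the call when any single pif4 pif5 library was left out. ABI2 lost it without pif4 pif5 heat replicate 2 or either pif4 pif5 mock library.

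The kinases and the other factor genes moved little. All 3 SnRK2 genes were tested; SNRK2.2 fell after heat by 0.16 ± 0.05 in pif4 pif5 and by 0.19 ± 0.05 in the wild type (limma, adjusted p = 0.047 and 0.012), and SNRK2.3 was higher in pif4 pif5 after heat by 0.17 ± 0.05 (adjusted p = 0.036). Each of these 3 calls was lost without at least 2 of the single libraries it compares. Of 7 other group A basic leucine zipper genes 4 were tested, and ABF1 alone rose in wild-type heat, by 0.30 ± 0.07 (limma, adjusted p = 0.0039). It averaged 35.2 FPKM in pif4 pif5 heat, 33.2 in pif4 pif5 mock, 39.8 in wild-type heat and 32.0 in wild-type mock. ABF2 was lower in pif4 pif5 after heat by 0.37 ± 0.09 (limma, adjusted p = 0.010), a call lost when replicate 1 of either heat group was left out (adjusted p = 0.064 and 0.069).

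Genes that make or remove the hormone went both ways. Of 14 genes of synthesis, breakdown and release 10 were tested: in pif4 pif5 2 rose and 3 fell after heat, where 6.28% of all genes were called higher and 13.9% lower, and in the wild type 4 rose and 4 fell, where 21.5% and 16.9% were. CYP707A1 and CYP707A3 encode 8′-hydroxylases that break the hormone down, and they moved in opposite directions. CYP707A1 averaged 0.884 ± 0.106 FPKM in pif4 pif5 heat, 1.02 ± 0.133 in pif4 pif5 mock, 6.76 ± 0.0856 in wild-type heat and 1.61 ± 0.286 in wild-type mock (SD, n = 2 each). CYP707A3 averaged 6.89 ± 1.21 FPKM in pif4 pif5 heat, 2.50 ± 0.370 in pif4 pif5 mock, 0.790 ± 0.0888 in wild-type heat and 2.05 ± 0.0175 in wild-type mock (SD, n = 2 each). The interaction was -1.68 ± 0.18 for CYP707A1 and 1.94 ± 0.19 for CYP707A3 (limma, adjusted p = 3.3e-05 and 1.6e-05). BG1 (BGLU18 in the annotation), a glucosidase that frees the hormone from its glucose ester, averaged 79.0 FPKM in pif4 pif5 heat, 165 in pif4 pif5 mock, 239 in wild-type heat and 172 in wild-type mock. It fell in pif4 pif5 by 1.05 ± 0.04 and rose in the wild type by 0.47 ± 0.04. NCED3, the synthesis gene known for its induction by drought, averaged 2.23 FPKM in pif4 pif5 heat, 3.54 in pif4 pif5 mock, 2.69 in wild-type heat and 6.05 in wild-type mock, and fell after heat in both genotypes. ABA1, which encodes zeaxanthin epoxidase, was lower in pif4 pif5 mock by 0.50 ± 0.04 (limma, adjusted p = 2.7e-06).

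Among 23 other dehydration and abscisic acid responsive genes 19 were tested. After heat 3 rose and 5 fell in pif4 pif5, where 6.28% of all genes were called higher and 13.9% lower. With median-of-ratios scaling 5 rose there, and without pif4 pif5 mock replicate 2 or the intensity trend 3 fell. In the wild type 14 rose and 4 fell, where 21.5% of all genes were called higher and 16.9% lower, so that the count that fell was close to this share. Between the genotypes 3 were higher and 8 lower in pif4 pif5 in mock (13.0% and 7.69% of all genes), and 2 were higher and 14 lower after heat (11.0% and 17.6%), with medians of -0.13 and -0.50. Some of the 14 rises in the wild type were lost with median-of-ratios scaling or without the intensity trend. The same holds for some of the 14 lower calls after heat. Leaving out single libraries also cost some of these calls. MYB102 passed the filter only through the wild-type heat libraries; without it 13 rose in the wild type and 13 were lower in pif4 pif5 after heat, of 18. ATHB7 (HB-7 in the annotation), a homeodomain leucine zipper factor induced by water deficit, averaged 9.31 ± 0.412 FPKM in pif4 pif5 heat, 9.00 ± 0.285 in pif4 pif5 mock, 35.6 ± 2.26 in wild-type heat and 5.88 ± 0.0705 in wild-type mock (SD, n = 2 each). Its interaction was -2.37 ± 0.11 (limma, adjusted p = 2.9e-08), although in mock it was higher in pif4 pif5 (0.54 ± 0.08). ALDH7B4, an aldehyde dehydrogenase gene, averaged 32.5 FPKM in pif4 pif5 heat, 38.6 in pif4 pif5 mock, 80.6 in wild-type heat and 53.6 in wild-type mock. P5CS1, which encodes the first enzyme of proline synthesis, averaged 32.2 FPKM in pif4 pif5 heat, 34.6 in pif4 pif5 mock, 76.8 in wild-type heat and 58.9 in wild-type mock. Both were lower in pif4 pif5 in mock and after heat. ERD15 rose in both genotypes, by 0.32 ± 0.04 in pif4 pif5 and 0.13 ± 0.04 in the wild type, and ERD4 and ERD7 fell in both. With median-of-ratios scaling the wild-type rise of ERD15 (0.11, limma, adjusted p = 0.083) and the fall of ERD4 in pif4 pif5 (-0.11, adjusted p = 0.12) did not pass. Both calls were also lost without the intensity trend and when some single libraries were left out.

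**Figure D4:**
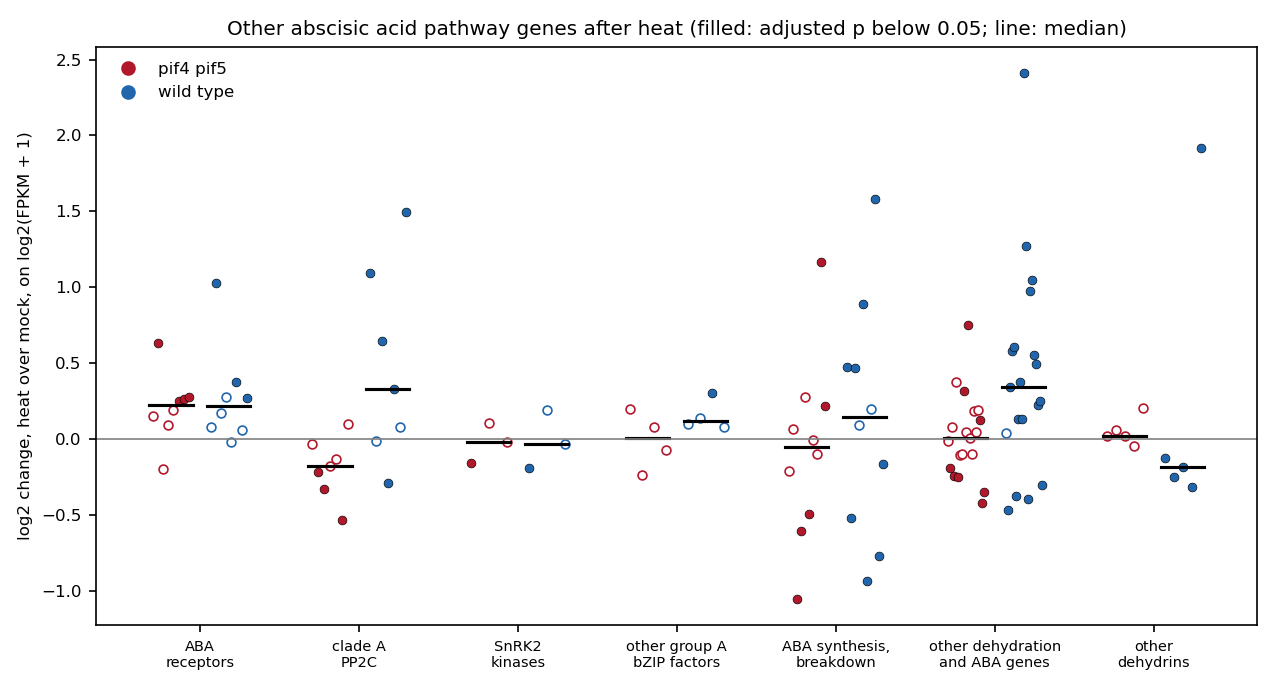
Log2 change, heat over mock, on the log2(FPKM + 1) scale of the tested genes of 7 other lists, with pif4 pif5 (red) left of the wild type (blue); filled points passed an adjusted p of 0.05 and lines are list medians. The highest wild-type points are ATHB7 at 2.41 and XERO2 at 1.92.

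The other dehydrins moved in both directions. Of 9 genes 5 were tested, and after heat 1 rose and 4 fell in the wild type (2 fell without wild-type heat replicate 1), where 21.5% of all genes were called higher and 16.9% lower. XERO2 (LTI30 in the annotation) was the one that rose, averaging 3.22 ± 0.474 FPKM in pif4 pif5 heat, 2.65 ± 0.444 in pif4 pif5 mock, 19.3 ± 3.47 in wild-type heat and 4.37 ± 0.940 in wild-type mock (SD, n = 2 each). ERD10 averaged 70.5 FPKM in pif4 pif5 heat, 67.7 in pif4 pif5 mock, 101 in wild-type heat and 120.4 in wild-type mock, and COR47 129, 127, 193 and 211 in the same groups. ERD10, COR47, ERD14 and XERO2 were lower in pif4 pif5 than in the wild type in mock (by 0.82, 0.73, 0.17 and 0.55), where 7.69% of all genes were called lower. The call of ERD14 was lost without pif4 pif5 mock replicate 2 (limma, adjusted p = 0.054), and that of XERO2 when replicate 1 of pif4 pif5 mock (-0.43, adjusted p = 0.14) or replicate 2 of wild-type mock (-0.37, adjusted p = 0.16) was left out, and without the filter (adjusted p = 0.10). Both calls were lost without the intensity trend, which left 2 of the 4.

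Markers of cells and tissues that could carry these transcripts were read beside them. The summed FPKM of 6 guard cell markers was 63.4 to 68.1 in pif4 pif5 heat, 57.0 to 60.3 in pif4 pif5 mock, 62.1 to 62.6 in wild-type heat and 61.5 to 63.6 in wild-type mock, so that the wild-type heat and mock ranges overlapped. The sum is mostly GC1, at 28.9 to 39.8 FPKM in single libraries, and KAT1, a potassium channel gene, differed from it. KAT1 had 8.42 and 8.05 FPKM in pif4 pif5 heat, 9.36 and 10.7 in pif4 pif5 mock, 10.6 and 11.0 in wild-type heat, and 8.80 and 8.58 in wild-type mock. It rose in wild-type heat by 0.28 ± 0.09 (limma, adjusted p = 0.021, lost without any 1 of the 4 wild-type libraries), was lower in pif4 pif5 after heat (-0.35 ± 0.09, adjusted p = 0.0089, lost without replicate 2 of either heat group) and had an interaction of -0.53 ± 0.12 (adjusted p = 0.0059), the directions seen for RAB18 and the ABF genes, while GC1 had an interaction of 0.46 ± 0.09 (adjusted p = 0.0022). No guard cell marker tested other than KAT1 and GC1 passed in any comparison. Of 6 seed markers, CRA1, CRU3, SESA1, OLEO1 and EM1 were listed at 0 in all libraries, and EM6 reached at most 0.158 FPKM, in wild-type heat. The sum of 3 phloem markers was 181 to 199 in pif4 pif5 heat, 192 to 214 in pif4 pif5 mock, 171 to 176 in wild-type heat and 197 to 199.8 in wild-type mock. The sum of 4 epidermis markers was 70.0 to 73.9 in pif4 pif5 heat, 88.9 to 94.5 in pif4 pif5 mock, 75.9 to 78.3 in wild-type heat and 103 to 110.5 in wild-type mock, and so was lower after heat in both genotypes. The 4 root markers, with RHD6 listed at 0, summed to 21.7 to 22.8 in pif4 pif5 heat, 32.6 to 34.3 in pif4 pif5 mock, 24.6 to 26.3 in wild-type heat and 20.1 to 20.2 in wild-type mock. Among them the phosphate transporter gene PHT1;1 had 2.93 and 1.41 FPKM in wild-type heat and at most 0.0455 in any other library, so it too passed the filter only through wild-type heat. The part of these differences in the results above was not tested.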

How the data were processed

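Libraries were prepared from DNase-treated leaf RNA with a directional kit, as the labels' protocols state. FPKM for all 8 libraries were deposited by the authors in 1 table. TopHat, TopHat2 and edgeR and the build TAIR10 are named without roles, per the submitters' processing notes; which program counted the reads, and its annotation and strand setting, is not given in the sources used here. The table holds no coordinates, and those given come from RefSeq TAIR10.1, to which 32548 row identifiers matched.

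FPKM are not counts, so limma 3.58.1 (R 4.3.3) was run on log2(FPKM + 1) with 4 group means, 4 residual degrees of freedom, an eBayes intensity trend and two-sided tests. It took in the 16831 genes that had 1 FPKM or more in 2 or more libraries. Adjusted p-values are Benjamini-Hochberg values over these genes in each of 5 comparisons, and the test was checked on simulated data. FPKM are scaled to library totals, so abundant genes that move shift all others. Whole reads were recovered from the steps of the deposited FPKM for 100% (to 3 digits) of 23543 rows above 0, within 0.1 of a whole number. The annotated length gave whole reads for 13108 rows, and for the rest the nearest length that gave them was taken. The share recovered is therefore not a check of the reads. They were used for depth and for limma-voom, which called 6628 genes for heat in the wild type and 3919 for heat in pif4 pif5.

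The members and gene lists were chosen with earlier results of these data known. All members are named; of other lists, the genes named are among the 3 with the smallest adjusted p per list and comparison and are then given in every group. CLO1, CLO2, CLO4 and MYB102 were named after their values were seen. For likeness, the 2 genes with the highest correlation are named. Alternatives were the pseudocount, the filter, 2 scalings, the replicate number as a block, a fit of the compared groups alone, no trend, limma-voom and each library left out. Figures were drawn with matplotlib 3.10.9.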

Additional observations from a re-analysis of the deposited data

Results flagged for a closer look

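The change after heat in pif4 pif5 differed from that in the wild type, by the interaction term of limma, for 7 of the 8 genes. Over all genes tested it differed for 31.9%. RD29B and LEA4-5 passed the filter on low values only through the wild-type heat libraries, and so had to differ there. Without them, the interaction was called lower for 4 and higher for 1 of 6 genes. The interaction (log2 change in pif4 pif5 minus that in the wild type) was -1.97 for RD20, -1.48 for LEA4-5, -1.09 for RAB18, -1.08 for RD29B, -0.44 for ABF3, -0.40 for ABF4 and 0.28 for RD22. Of these, ABF3 and ABF4 lost the call in some alternatives, as given beside their values.

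Genes named from the other lists that met the same test were lower in the interaction for ATHB7 (-2.37), XERO2 (-1.71), CYP707A1 (-1.68), BG1 (-1.52), HAI1 (-1.40), HAB1 (-0.97), ALDH7B4 (-0.82), ERD1 (-0.68), ABI1 (-0.46), PYL4 (-0.40) and ABF2 (-0.38). HAI1, like LEA4-5 and RD29B, passed the filter on low values only through the wild-type heat libraries and so had to differ there; its value did not pass in limma-voom on the recovered reads (adjusted p = 0.20). The interaction was higher for CYP707A3 (1.94), PG2 (0.52), ERD10 (0.31) and ERD14 (0.27). The value of ABF2 no longer passed with either scaling, without the filter or the trend, or without any of several single libraries. That of PYL4 did not pass with quantile scaling (-0.30, limma, adjusted p = 0.055).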

How the results depend on the processing

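With 2 libraries a group, leaving out 1 leaves a single library that is assumed to vary like the other groups. Leaving out each library gave 3 to 7 members called for heat in the wild type, 5 to 8 for the genotypes after heat and 4 to 7 for the interaction; the lowest values came without a wild-type heat library, when RD29B and LEA4-5 were below the filter. When they were kept in the fit, they had still been chosen with both wild-type heat libraries, so their calls there are no check. Over all genes, the ranges were 1451 to 3510 for heat in pif4 pif5 (3401 as reported), 1780 to 3243 for the genotypes in mock (3479) and 2972 to 4961 for the genotypes after heat (4814; 3171 without wild-type heat replicate 1 when the genes of the full table were kept). Members called for heat in pif4 pif5 numbered 2 under quantile scaling and 2 under median-of-ratios scaling, against 1, because RD20 then passed.

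The share of all calls that were higher depended on scaling. For heat in the wild type, heat in pif4 pif5, the genotypes in mock, the genotypes after heat and the interaction it was 56.1%, 31.1%, 62.8%, 38.5% and 32.2% as reported, 51.8%, 59.6%, 42.2%, 48.4% and 49.2% with median-of-ratios scaling, and 42.9%, 48.0%, 47.1%, 54.8% and 52.4% with quantile scaling. The median of all genes for the interaction was -0.10 as reported and 0.02 with quantile scaling. No member that passed changed direction.

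The correlation of replicate differences between groups was -0.0277 to 0.186, highest between pif4 pif5 mock and wild-type mock. Whether libraries of equal replicate number shared a batch was not tested. With the replicate block, genes called numbered 6725, 3713, 3878, 5141 and 5645 in the same order, against 6468, 3401, 3479, 4814 and 5371 without it. Members called with the block numbered 7, 1, 4, 8 and 7. The extra member was RAB18 in mock. Among single members, 8 values in alternatives newly passed and 28 no longer passed, of 688. These counts leave out the fits in which RD29B and LEA4-5 were below the filter and had no value. RD29B and LEA4-5 rest on few reads.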

Other observations

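Most of the other caleosin, LEA and BURP domain genes listed were below the filter. Of those tested, LEA26, LEA27 and PG2 passed in at least 1 comparison. The other dehydrins, relatives of RAB18, are given above. Of 6 other caleosin genes 1 was tested, CLO4, which averaged 9.97 ± 0.542 FPKM in pif4 pif5 heat, 10.8 ± 0.632 in pif4 pif5 mock, 9.21 ± 0.729 in wild-type heat and 10.4 ± 1.29 in wild-type mock (SD, n = 2 each). Its log2 changes lay between -0.15 and 0.10 in the 5 comparisons, none past the threshold in limma. CLO1 and CLO2 were listed at 0 in all libraries.

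Of 4 relatives of LEA14 and LEA4-5, 2 were tested. LEA27 averaged 1.03 FPKM in pif4 pif5 heat, 0.748 in pif4 pif5 mock, 1.63 in wild-type heat and 0.759 in wild-type mock; its rise in the wild type by 0.57 ± 0.15 (limma, adjusted p = 0.011) was lost without wild-type heat replicate 2 (adjusted p = 0.14) or wild-type mock replicate 1 (0.079). LEA26 averaged 101 FPKM in pif4 pif5 heat, 87.1 in pif4 pif5 mock, 102 in wild-type heat and 95.5 in wild-type mock. LEA26 rose after heat in pif4 pif5 (0.21 ± 0.05, limma, adjusted p = 0.014) and did not pass in the wild type (0.09 ± 0.05, adjusted p = 0.18); the interaction did not pass (0.12 ± 0.07, adjusted p = 0.24), and the rise was lost without replicate 2 of pif4 pif5 heat or of pif4 pif5 mock (adjusted p = 0.11 and 0.12). Of 4 other BURP domain genes 2 were tested, and PG2 averaged 33.4 FPKM in pif4 pif5 heat, 32.6 in pif4 pif5 mock, 30.1 in wild-type heat and 42.6 in wild-type mock. Like RD22, PG2 was highest in wild-type mock, and it fell after heat in the wild type by 0.49 ± 0.05 (limma, adjusted p = 1.8e-05).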
